A study of Mus musculus with 2 samples.

Results

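Among 15156 cells of mouse ovarian tumors, 179 cells were selected that met the rule for type 1 conventional dendritic cells (cDC1), the rule for plasmacytoid dendritic cells (pDC), or both. The members were selected on measured values of the same cells, their counts of unique molecular identifiers (UMIs, each a tag for 1 captured RNA molecule). A cell met the type 1 rule with at least 1 UMI of Xcr1 and Clec9a summed, and the plasmacytoid rule with at least 2 UMIs of Siglech. Under both rules it had no UMI of Cd3d, Cd3e, Cd3g or Cd79a, at most 4 of the C1q genes summed and at most 2 of Ccr7 and Fscn1 summed, which left out T cells, B cells, C1q macrophages and mature dendritic cells. The type 1 rule took 144 cells and the plasmacytoid rule 72, with 37 cells in both. The 2 kinds are described apart. The name of the plasmacytoid group was borne out by its other markers, whereas that of the type 1 group was borne out for a part of its cells only, as described further on.

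cDC1 take up material of dying cells and present it on MHC class I to CD8 T cells, a process called cross-presentation. They carry the chemokine receptor Xcr1 and the dead-cell receptor Clec9a, and depend on the transcription factors Batf3 and Irf8. pDC are round, lymphoid-looking cells that sense nucleic acids through Tlr7 and Tlr9 and are known for making type I interferons. They carry Siglech and Bst2, depend on the transcription factor Tcf4, and in mice can also carry Clec9a at a low level.

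The cells came from 2 libraries of droplet-based single-cell RNA sequencing, 1 for each group of C57BL/6 female mice aged 6 to 8 weeks. By the labels, ovarian cancer cells of the same strain (p53-/-, myc, Hras) had been injected into the peritoneum after abrasion of the peritoneal wall, and from the next day 7 mice received control IgG and 8 mice an antibody that neutralizes Activin A, every day for 10 days. The paper gives another number of days, and other numbers of mice for its single-cell experiment, and this difference was not settled. Tumors at the abrasion site were pooled over the mice of a group and were not sorted for any cell type. With 1 library for each group, no test of a difference between groups was possible, and treatment cannot be told apart from any other difference between the 2 libraries. All intervals given are 95% intervals (exact binomial for shares, exact Poisson for levels, conditional binomial for ratios) and cover counting error only.

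In all, 98174850 UMIs were counted in control IgG and 74117462 with the Activin A antibody. A droplet was taken as a cell if it held 1000 to 8500 genes and 1000 to 100000 UMIs, of which no more than 10% were mitochondrial, and 8770 and 6386 cells remained. The kept cells had median counts of 5719 and 4660 UMIs. Cells under the plasmacytoid rule were of similar depth in both libraries, with medians of 6371 and 5989 UMIs, and those under the type 1 rule had medians of 8590 and 9771 UMIs. Of all kept cells, 19 had a barcode found in both libraries, 1 of these was a member, and none was a member in both. Doublets were not called.

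The genes that chose the members lie on 3 chromosomes of the mouse (build GRCm38). Xcr1 lies on chromosome 9 (123852315 to 123862029, minus strand), Clec9a on chromosome 6 (129408862 to 129424763, plus strand) and Siglech on chromosome 7 (55768178 to 55778925, plus strand). Each is a protein-coding gene, and a UMI was assigned to a gene without a position inside it. Since UMIs were counted at the ends of transcripts, levels are compared gene by gene between groups of cells. Where a gene is called sparse, abundant or the most abundant of a list, this refers to its counted UMIs alone.

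The type 1 rule took 80 cells of the control IgG library and 64 of the antibody library. Of these, 41 and 30 entered with exactly 1 UMI of Xcr1 and Clec9a, which is the lowest count the rule admits, and 20 and 18 had a UMI of Xcr1. For comparison, among T cells, which should lack the gene, 24 of 5370 (0.447%) and 15 of 4136 (0.363%) had a UMI of Clec9a at medians of 5099 and 4351.5 UMIs, and among cells with 5 or more C1q UMIs 19 of 1004 (1.89%) and 3 of 279 (1.08%) did, at medians of 7527 and 6198 UMIs. A cell with a lone UMI of Clec9a can thus belong to another type. The conditions on other cells had left out 102 and 55 cells with Xcr1 or Clec9a, most of them for a CD3 gene (67 and 43 cells) or C1q (35 and 5 cells). The following 3 sets of cells could be told apart within the 144: 37 cells (25.7%) that also met the plasmacytoid rule, 17 cells (11.8%) that carried marker genes taken for those of the cancer cells, and the remaining 90 cells (62.5%).

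**Figure D1:**
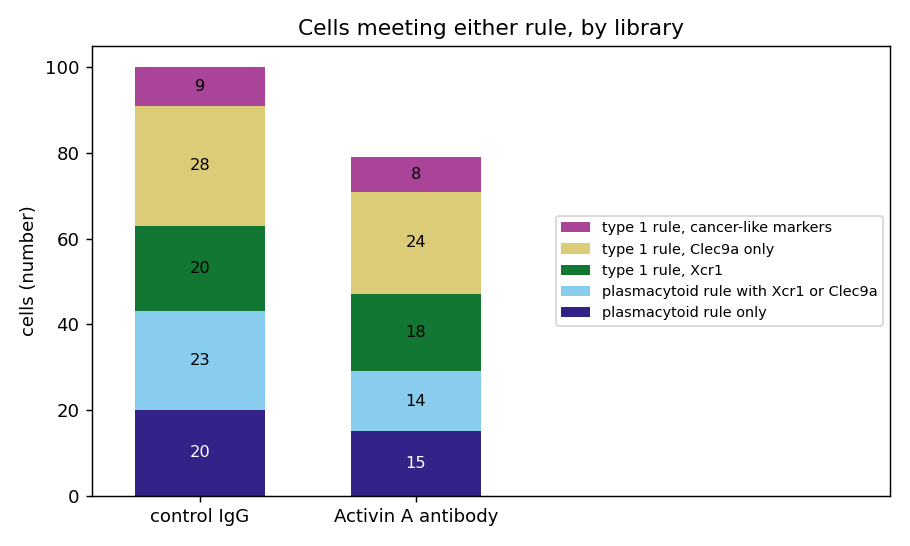
Number of cells meeting either rule in each library (100 in control IgG, 79 in Activin A antibody). Segments give the cells meeting the plasmacytoid rule only, both rules, and the type 1 rule with Xcr1, with Clec9a only or with genes of the cancer cells. All segments were cut from the measured UMIs of the same cells.

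The 17 cells with genes of the cancer cells, 9 in control IgG and 8 in the antibody library, held 20 or more UMIs of Dlk1, Hmga2, Krt18, Cdkn2a and Lgals7 summed. This limit was set after the values were seen, and nothing lay near it. The lowest sums among these cells were 78 and 117 UMIs, and the highest sum among the 90 remaining cells was 2 in both libraries. Lgals7, a galectin of epithelia, stood at 2183 and 2249 CPM (UMIs of a gene for each 1000000 UMIs of the cells summed), and Dlk1, a membrane protein of fetal tissues, at 1081 and 2056 CPM. Most genes that mark a dendritic cell were at or near 0 in these cells, with some exceptions. Wdfy4, which cDC1 need for cross-presentation, had 0 and 1 UMIs in them, Xcr1 had none, Cd74, the invariant chain of MHC class II, stood at 119.8 and 4.88 CPM, and a UMI of the leukocyte gene Ptprc was seen in 2 of 9 and 2 of 8 cells. The type 1 markers Batf3 and Itgae had no UMI, while Cadm1, an adhesion molecule, had 48 and 8 and Naaa 5 and 11 UMIs, and a type 1 marker was found in 7 of 9 and 6 of 8 cells. They were also the largest cells, with medians of 43091 and 45280 UMIs, and held 39.6% of all UMIs under the type 1 rule. Sums over that rule are therefore given beside sums over the 90 remaining cells, called trimmed type 1 cells.

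Cells meeting both rules resembled the other pDC rather than cDC1. All 37 entered the type 1 rule through Clec9a, as no cell of the plasmacytoid group had a UMI of Xcr1. They had Tcf4 at 3717 and 3923 CPM, beside 4137 and 5107 CPM in pDC without Clec9a. Batf3 had no UMI in either set, and the type 1 marker Naaa, a lysosomal amidase, had 3 UMIs in all and 0 in pDC without Clec9a. Clec9a was thus found in 23 of 43 (53.5%) and 14 of 29 (48.3%) cells of the plasmacytoid group, far above the T cell shares given before. When every cell was thinned to 2000 UMIs, 27.9% and 24.1% of these pDC still had a UMI of Clec9a, against 0.0379% and 0.0747% of T cells.

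**Figure D2:**
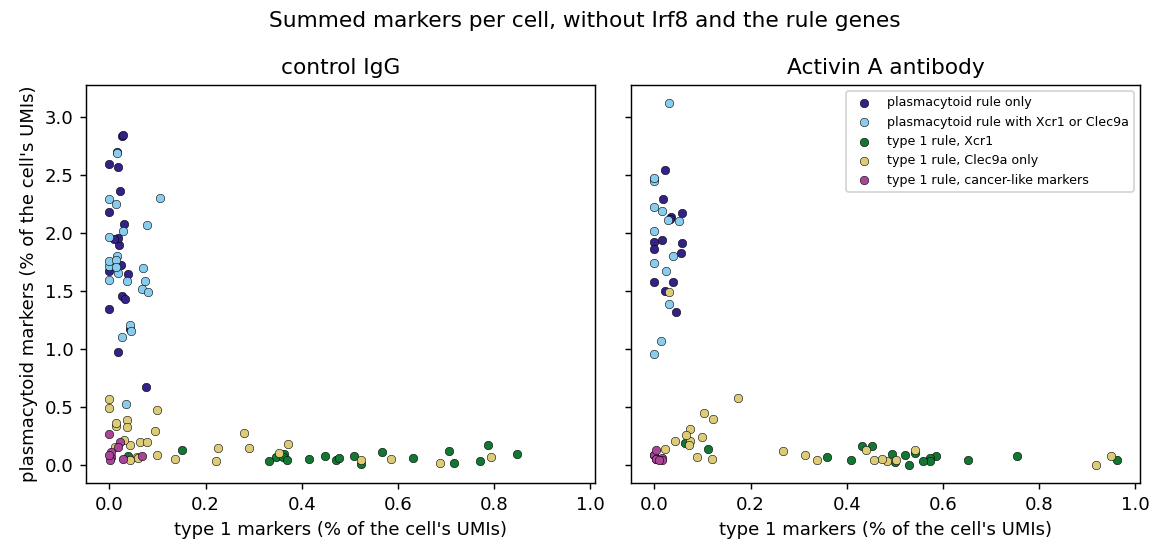
Each point is 1 member cell, with the share of its UMIs in type 1 marker genes (horizontal axis, %) and in plasmacytoid marker genes (vertical axis, %), for each library, without Irf8 and without the genes of the rules. Cells under the plasmacytoid rule, with or without Clec9a, form 1 group with medians of 1.72% and 1.94% plasmacytoid markers, cells with Xcr1 lie along the horizontal axis with medians of 0.474% and 0.525% type 1 markers, and cells with genes of the cancer cells lie near the origin.

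Among the 90 trimmed type 1 cells, cDC1 markers were lower in cells that had entered with 1 UMI of Clec9a than in cells with Xcr1. The 20 and 18 cells with Xcr1 had Wdfy4 at 1357 and 1325 CPM, the 9 and 7 cells without Xcr1 but with 2 or more UMIs of Clec9a at 1005 and 774 CPM, and the 19 and 17 cells with 1 UMI of Clec9a at 340.4 and 489.7 CPM. Naaa stood at 1155 and 1368 CPM in cells with Xcr1, at 889 and 1514 CPM in the middle group and at 385 and 662 CPM in cells with 1 UMI of Clec9a. It is not confined to cDC1, and stood at 234 and 113 CPM in Cd209a dendritic cells and 299 and 256 CPM in C1q macrophages. Batf3 was at 189 and 187 CPM in cells with Xcr1 and 70.7 and 48.3 CPM in those with 1 UMI of Clec9a. These 2 end groups had the same order in both libraries for the 3 genes, while Naaa in the antibody library was highest in the middle group, and cells with Xcr1 were also the deepest, at medians of 12021.5 and 13031.5 UMIs against 8174 and 9086.

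Some cells that entered with 1 UMI of Clec9a carried genes of other myeloid cells, and the group was mixed. The share of a cell's UMIs in type 1 markers ran from 0% to 0.794% and from 0.0213% to 0.917%. Upper quartiles were 0.0992% and 0.440%, beside medians of 0.474% and 0.525% in cells with Xcr1. Cd209a, a lectin of monocyte-like and type 2 dendritic cells, had no UMI in any cell with Xcr1, and stood at 437 and 207 CPM in cells with 1 UMI of Clec9a, where 8 of 19 and 6 of 17 cells had it. Zeb2, a repressor known to be low in cDC1, was at 33.6 and 42.4 CPM against 841 and 531 CPM. Lyz2, the lysozyme of monocytes and macrophages, was at 903 and 286 CPM against 3771 and 835 CPM. MHC class II did not separate them: H2-Aa was at 7249.7 and 6648 CPM in cells with Xcr1 and 7355 and 6573 CPM in those with 1 UMI of Clec9a. The markers bore out the name cDC1 for the cells with Xcr1 as a group, though not for each of them. Among these, 1 control IgG cell had no UMI of Cd74 or Irf8, and 2 of its 5048 UMIs were in type 1 markers. Cells without Xcr1 but with 2 or more UMIs of Clec9a had Wdfy4 and Naaa above the cells with 1 UMI. Their median shares of UMIs in type 1 markers, 0.225% and 0.339%, lay below those of cells with Xcr1, and the name is less certain for them.

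**Figure D3:**
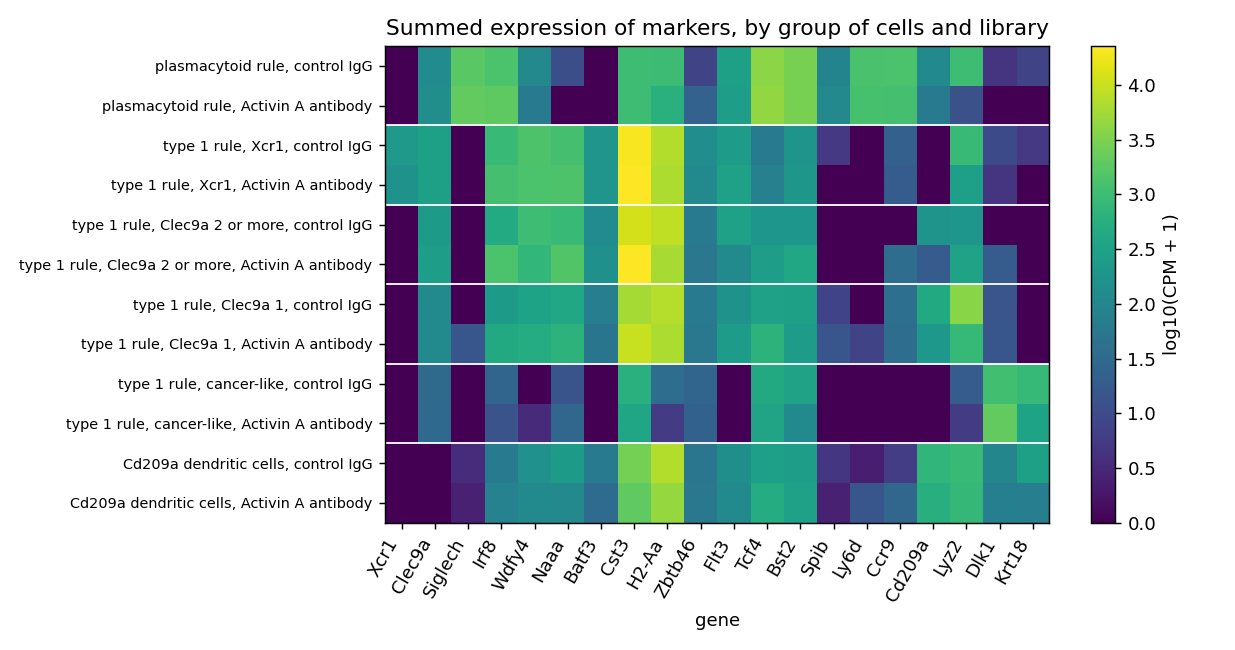
Levels of 20 genes as log10(CPM + 1) in groups of member cells, with Cd209a dendritic cells for comparison. Rows are groups of cells by library, columns are genes, and dark cells stand for 0. Cells with Xcr1 have Wdfy4 at 1357 and 1325 CPM and no Cd209a, cells of the plasmacytoid group have Tcf4 at 3907 and 4518 CPM and no Batf3, and cells with genes of the cancer cells have Dlk1 at 1081 and 2056 CPM.

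In the cells with Xcr1, Cst3 and Irf8 stood above their levels in Cd209a dendritic cells. Cst3, cystatin C, made up 20535 and 22684 CPM, against 2789.9 and 1972 CPM in Cd209a dendritic cells. Irf8 was at 886 and 1188 CPM, against 62.8 and 83.2 CPM in the Cd209a cells. Tlr3, the endosomal sensor of double-stranded RNA in cDC1, was sparse at 54.6 and 109.6 CPM. Cxcl9, a chemokine that draws T cells carrying Cxcr3, had a UMI in 8 of 20 and 10 of 18 cells with Xcr1 (496 and 318 CPM). The inhibitory receptor Btla was found in 16 of 20 and 15 of 18 of them. Il12b, a subunit of interleukin 12, had 8 UMIs in 1 control IgG cell and 0 in the antibody library among all trimmed type 1 cells.

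The plasmacytoid rule took 43 and 29 cells, and their other markers were high in both libraries. Siglech itself ranged from 2 to 26 UMIs in control IgG and from 2 to 33 in the antibody library, with a median of 11 in both, and 2 cells in each library had 2 or 3 UMIs. Tcf4, the transcription factor that keeps the pDC fate, had a UMI in every cell, at 3907 and 4518 CPM. Bst2, a surface protein that also tethers virus particles, likewise had a UMI in every cell, at 2874 and 2912 CPM. The factors Runx2 (896 and 1250.4 CPM) and Bcl11a (741 and 1023 CPM), both known in pDC development, and Irf8 (1299 and 1873 CPM) were found in most cells. Ccr9, the receptor that guides pDC to the gut, was at 1306 and 1156 CPM, and Cox6a2, a subunit of the respiratory chain, at 1082 and 1567 CPM. Spib, another pDC factor, had a UMI in 16 of 43 and 14 of 29 cells.

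Cells next to the threshold are given as a description. The 2 cells in each library with 2 or 3 UMIs of Siglech had Tcf4 at 3881 and 3125 CPM, Ccr9 at 554 and 284 CPM and no UMI of Ly6d. Cells with 4 or more had Tcf4 at 3909 and 4637 CPM, Ccr9 at 1345 and 1230 CPM and Ly6d at 1345 and 1345 CPM. Among cells that met every other condition, 6 in control IgG and 5 in the antibody library had exactly 1 UMI of Siglech. These had Tcf4 at 339 and 1267 CPM and Bst2 at 476 and 369 CPM, and stayed outside the plasmacytoid group. In T cells, 6 of 5370 (0.112%) and 5 of 4136 (0.121%) had a UMI of Siglech.

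Transcripts of the interferons themselves were not detected in these pDC. All 17 type I and III interferon ligands of the list had 0 UMIs in the group, which held 290235 and 179937 UMIs, and the 3 UMIs taken as the limit of a count of 0 come to 10.3 and 16.7 CPM. Tlr7, the sensor of single-stranded RNA, was found in 21 of 43 and 15 of 29 cells at 99.9 and 144 CPM, and Unc93b1, which carries these receptors to the endosome, in 41 of 43 and 29 of 29 cells at 624 and 689 CPM. Tlr9, the sensor of unmethylated DNA, had 0 and 4 UMIs. Irf7, the factor that drives interferon genes, stood at 110.3 and 83.4 CPM. The chemokine Ccl4, which draws immune cells, was abundant, at 1960.5 and 2757 CPM with a UMI in 33 of 43 and 21 of 29 cells.

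Genes better known from lymphocytes were part of the pDC profile. Ighm, the constant region of immunoglobulin M, had a UMI in 41 of 43 and 29 of 29 cells (703 and 923 CPM), while Jchain and Ms4a1, which mark plasma cells and B cells, had 0 UMIs. Il7r, the receptor of interleukin 7, was found in 35 of 43 and 27 of 29 cells, Cd8a in 20 of 43 and 11 of 29, and Cd4 in 18 of 43 and 10 of 29. The T cell receptor gene Trac stood at 0 and 11.1 CPM, against 443 and 480.0 CPM in T cells. The precursor genes Axl and Kit had 0 and at most 2 UMIs in either library.

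Set beside each other, the 2 kinds differed at many genes, as the choice of members makes likely. Of 1841 genes with a mean level of at least 100 CPM over kinds and libraries, 123 (6.68%) were at least 4-fold higher in pDC than in trimmed type 1 cells in both libraries, and 69 (3.75%) were at least 4-fold higher in trimmed type 1 cells. On the pDC side stood 13 of the 16 plasmacytoid markers that passed the filter on level, the exceptions being Irf8, Zeb2 and Rnase6, and on the type 1 side 6 of 7 type 1 markers, the exception again being Irf8. Irf8 was higher in pDC, by 1.13 and 0.93 on the log2 scale. The 10 genes picked by their ratios on the pDC side were Cox6a2, Mctp2, Prkca, Atp1b1, Ly6d, Grm8, Cacna1e, Smim5, Klk1 and Iglc3. Each of them had 0 to 3 UMIs in trimmed type 1 cells of a library. Where it had 0 the ratio was taken against a floor of 3 UMIs, so that a gene with 1 UMI could get a higher ratio than a gene with 0, and the choice of these genes does not rank the differences by size. Ly6d is a surface marker of lymphoid precursors, Klk1 a tissue kallikrein, Atp1b1 a subunit of the sodium pump, Prkca a protein kinase C, Grm8 a glutamate receptor and Cacna1e a calcium channel. On the type 1 side they were Naaa, the interferon-induced Ifitm1, Ciita, which switches on MHC class II genes, the maturation marker Cd83, Htr7, a serotonin receptor, Aif1, Ifi205, Ccser1, the cytokine Il1b and the metallothionein Mt1. Ciita had 109 and 114 UMIs in trimmed type 1 cells and 1 UMI in pDC of each library, and 6 of 10 MHC class II genes were at least 4-fold higher in type 1 cells.

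With all cells under the type 1 rule, which share 37 cells with the plasmacytoid group, 90 of 1859 genes (4.84%) were at least 4-fold higher in pDC and 43 (2.31%) in type 1 cells. The leading genes on the type 1 side then included Lgals7, Dlk1, Igfbp4, Spp1, Chchd10, Tgfbi and Pid1 beside Ifitm1, Naaa and Mt1. Of the 5 marker genes of the cancer cells, 4 passed the filter on level and all 4 were on that side. On the pDC side stood Ly6d, Klk1, Ncald, Cd8b1, Cd8a, Pdzd4, Setbp1, Ablim1, Dntt and Gria3. Cd8a and Cd8b1 encode the CD8 chains, and Dntt the enzyme that adds bases to rearranging receptor genes. The T cell gene list gave 2 of 2 tested genes on the pDC side, Cd8a and Il7r.

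Of 4 tested genes of the activin and TGF beta list, 2 were at least 4-fold higher in pDC and 0 in trimmed type 1 cells. Over all genes these shares were 6.68% and 3.75%. Tgfbr2, the receptor that binds TGF beta, was at 303 and 267 CPM in pDC and 41.0 and 41.1 CPM in trimmed type 1 cells. Tgfbr1, its partner kinase, was at 203 and 278 against 34.8 and 35.0 CPM. Levels of activin receptors follow and are not compared with these. Acvr2a, which binds activins, stood at 107 and 66.7 CPM in pDC and 47.1 and 30.9 CPM in trimmed type 1 cells, and the activin signaling kinase Acvr1b had 0 and 1 UMIs in pDC and 6 and 9 UMIs in trimmed type 1 cells. Inhba, which encodes the subunit that forms Activin A, had 1 and 0 UMIs in pDC and 0 in trimmed type 1 cells.

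The question put to the 2 libraries was whether either kind of dendritic cell differed with the Activin A antibody. Neither took a share of cells that differed beyond counting error. Cells under the type 1 rule were 0.912% (0.724 to 1.13) of cells in control IgG and with the antibody 1.00% (0.773 to 1.28), for a log2 ratio of 0.14 (-0.36 to 0.63). Cells under the plasmacytoid rule were 0.490% (0.355 to 0.660) and 0.454% (0.304 to 0.652), a log2 ratio of -0.11 (-0.84 to 0.60). Trimmed type 1 cells numbered 48 and 42 (log2 ratio 0.27, -0.37 to 0.89) and cells with Xcr1 numbered 20 and 18 (0.31, -0.70 to 1.30). With so few cells, only large differences in share could have been seen. For comparison, C1q macrophages numbered 980 and 275 cells, a log2 ratio of -1.38 (-1.57 to -1.18), and Cd209a dendritic cells numbered 92 and 76 (0.18, -0.28 to 0.64).

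Within cells under the type 1 rule, levels in the antibody library were at least 2-fold higher for 8 of 1622 genes with a mean of at least 100 CPM (0.493%) and at least 2-fold lower for 16 (0.986%). The lowest ratios were those of Trf, which encodes transferrin (-2.65), Lyz2 (-2.25), Txnip, an inhibitor of glucose uptake (-1.46), Iigp1, an interferon-induced GTPase (-1.25), Mgp, matrix Gla protein (-1.23), and Wfdc17 (-1.22). The highest were those of the dividing-cell genes Top2a (1.67), Ube2c (1.55) and Stmn1 (1.32), of Plxdc1 (1.36), Mt1 (1.10) and Dlk1 (1.06). Some of these values rested on few cells. The cell with most Trf UMIs held 268 of 940 in control IgG, the cell with most Mgp UMIs 179 of 451, and the cell with most Dlk1 UMIs 452 of 847 in the antibody library. Cells with genes of the cancer cells held 138 of the 217 Top2a UMIs, 145 of the 191 Ube2c UMIs and 135 of the 255 Stmn1 UMIs of the antibody library, and 95 of the Ube2c UMIs were in 1 cell. The 5 genes that chose those cells, Dlk1 among them, summed to 2035 and 2371 CPM under the type 1 rule. In trimmed type 1 cells they summed to 22.5 and 18.5 CPM, so the ratio of Dlk1 describes the cells with genes of the cancer cells. Most of the ratios named here depended on the settings. Over the alternatives run, Trf ran from -3.36 to -1.64, Lyz2 from -2.57 to -1.82, Txnip from -1.59 to -1.04 and Top2a from 1.40 to 3.56, all past 2-fold. The others were short of 2-fold under at least 1 setting. With no limit on C1q, Ccr7 and Fscn1, Mgp was at -0.67, Stmn1 at 0.75, Ube2c at 0.85 and Mt1 at 0.45. With C1q, Ccr7 and Fscn1 at 0, Wfdc17 was at -0.94, and with stricter rules it was at -3.13 and Plxdc1 at 0.55. Mt1 changed direction with stricter rules, at -0.080. With the mean CPM of single cells Iigp1 was at -0.13. Without the 5% of members with most UMIs Ube2c was at 0.34, Mgp at -2.48 and Dlk1 at -0.33, and without its richest cell Dlk1 was at 0.41.

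In the 90 trimmed type 1 cells, 8 of 1632 genes (0.49%) were at least 2-fold higher with the antibody and 21 (1.29%) at least 2-fold lower. Among those on the low side stood Lyz2 (-1.89), Lrmda (-1.66), Pltp, a phospholipid transfer protein (-1.62), Cd274 (-1.51) and the transglutaminase Tgm2 (-1.46). On the high side stood Stmn1 (1.87), the chromatin demethylase Kdm6a (1.47), Plxdc1 (1.43), the transcription factors Klf2 (1.38) and Egr1 (1.27), and the chromatin protein Hmgb2 (1.30). Some of the lower genes are known from other myeloid cells. Of the list of Cd209a dendritic cells, 3 genes were tested, with a median ratio of -1.34. Of these, 2 were at least 2-fold lower, beside 1.29% of all genes. Cd209a was at 174 and 63.8 CPM, Clec10a, a lectin of the same cells, at 152 and 59.7 CPM, and Ccl6, a macrophage chemokine, at 248 and 115 CPM. Several values rested on few cells. The cell richest in each gene held 258 of the 820 Lyz2 UMIs and 55 of the 108 Pltp UMIs in control IgG, and 54 of the 91 Plxdc1 UMIs and 14 of the 26 Tgm2 UMIs with the antibody. Without the richest cell the ratio of Pltp was -1.02, and with C1q, Ccr7 and Fscn1 at 0 it was -0.60. With no limit on those genes Egr1 was at 0.35 and Klf2 at 0.49, and with stricter rules Lyz2 was at -0.96, Pltp at -4.60 and Tgm2 at -2.87. Plxdc1 ran from 1.18 to 2.57. The whole list of macrophage and monocyte markers summed to 2056 and 553 CPM in these cells, against 2138 and 1423 CPM in free RNA (droplets under 100 UMIs), with none of its 9 genes at 0 in both libraries and Lyz2 the most abundant; its part in the other differences was not tested.

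Cd274 encodes PD-L1, the ligand that restrains T cells through PD-1, and lies on chromosome 19 (29367455 to 29388095, plus strand, GRCm38). Trimmed type 1 cells had 120 UMIs of it in control IgG and 42 with the antibody, or 246 (204 to 294) and 86.4 (62.3 to 117) CPM. The log2 ratio was -1.51 (-2.05 to -0.99), 2.84-fold lower. No cell carried this difference alone: the cells with most UMIs held 14 and 7, the ratio without them was -1.59, and a UMI was found in 27 of 48 and 13 of 42 cells. At an equal depth of 2000 UMIs for each cell, the shares were 27.1% (15.3 to 41.8) and 9.52% (2.66 to 22.6), which overlap, and in T cells they were 13.7% and 14.6%. In cells with Xcr1 the level was 231 and 53.0 CPM, with a UMI in 13 of 20 and 6 of 18 cells. Mature dendritic cells also carry Cd274. Their marker list summed to 231 and 101 CPM in trimmed type 1 cells, against 54.2 and 67.2 CPM in free RNA. None of the 7 genes of this list passed the filter on level. Its most abundant gene, the NF-kB subunit Relb, had 41 and 16 UMIs, the chemokine Ccl17 had 33 UMIs in 3 cells and 0 UMIs, and Il4i1 had 22 and 26, while of the 7 genes Nudt17 was at 0 in both libraries. Ccr7 and Fscn1, which the rule limits, had 3 and 1 UMIs in control IgG and 1 and 0 with the antibody. With these genes and C1q at 0 the ratio of Cd274 was -1.49, and the part of the other mature markers in it was not tested.

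Neither Cd209a dendritic cells nor T cells had lower Cd274 in the antibody library, and the difference between cell types was not tested. Cd209a dendritic cells had 156 and 209.5 CPM (log2 ratio 0.42, 0.06 to 0.78) and T cells 70.9 and 81.7 CPM. In pDC the gene had 13 UMIs in 8 of 43 cells and 3 UMIs in 3 of 29 cells. It was thus lower in the antibody library there too, but on few counts. Other surface genes of trimmed type 1 cells were closer between the libraries. The costimulatory ligand Cd86 was at 291 and 342 CPM, Cd83 at 326 and 319 CPM, Btla at 233 and 239 CPM, and Pdcd1lg2, which encodes PD-L2, at 90.1 and 101 CPM. Of the 5 tested genes of this list, 1 (Cd274) was at least 2-fold lower and none at least 2-fold higher, beside 1.29% and 0.49% of all genes.

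Some genes of dividing cells were higher in trimmed type 1 cells of the antibody library. Top2a, the topoisomerase of dividing cells, had 12 and 79 UMIs in trimmed type 1 cells, 24.6 and 163 CPM, a log2 ratio of 2.73 (1.84 to 3.74). Its mean level was under 100 CPM, so it is not among the genes tested. Stmn1, which breaks down microtubules, was at 67.6 and 247 CPM and Hmgb2 at 291 and 716 CPM. All 5 genes of the division list that passed the filter on level had ratios above 0, beside 806 of all 1632 genes, with a median log2 ratio of 0.82 beside -0.01. Of the 5, 2 were at least 2-fold higher, beside 0.49% of all genes.

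The difference in division genes lay in few cells. A UMI of Mki67 or Top2a was found in 19 of 80 and 14 of 64 cells under the type 1 rule (23.8% and 21.9%) and in 9 of 48 and 10 of 42 trimmed cells (18.8% and 23.8%). Thinned to 2000 UMIs, 3 of 48 (interval 1.31% to 17.2%) and 7 of 42 trimmed cells (6.97% to 31.4%) had one, and these intervals overlap. The 2 genes summed to 5 or more UMIs in 1 of 48 and 6 of 42 trimmed cells. The control IgG cell had 11 such UMIs and 93 of the division list, with Clec9a and no Xcr1. Another control IgG cell, with Xcr1, lay just under that limit with 4 UMIs and had 107 of the division list. All 79 Top2a UMIs of the antibody library were in cells with Xcr1, as were 3 of the 12 in control IgG. Among cells with Xcr1 alone, 0 of 20 and 6 of 18 had 5 or more UMIs and 2 of 20 and 8 of 18 had any. Thinned, 1 of 20 (interval 0.127% to 24.9%) and 6 of 18 (33.3%, 13.3 to 59.0) had one, and these intervals overlap. Median shares of the whole division list in a cell's UMIs were 0.0940% and 0.0843% in trimmed type 1 cells. In cells with Xcr1 they were 0.0994% and 0.107%, and the highest shares were 0.627% and 1.27%. In T cells the thinned shares with a UMI of Mki67 or Top2a were 24.5% and 22.0%. pDC had 9 and 0 UMIs of Top2a, and none of the 4 tested genes of the division list had a ratio above 0 in them, beside 1052 of all 1973 genes, with a median of -0.44 beside 0.02. Pcna was past 2-fold (-1.18, -2.14 to -0.30), beside 1.77% of all genes. A lone control IgG cell, which also held most of the Fn1 UMIs of the group, had 10 of its 13 UMIs of Mki67 and Top2a and 68 of the 255 UMIs of the division list. Without it, a choice made after seeing the data, the median was -0.21, Pcna was at -0.77 and Tuba1b was above 0.

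**Figure D4:**
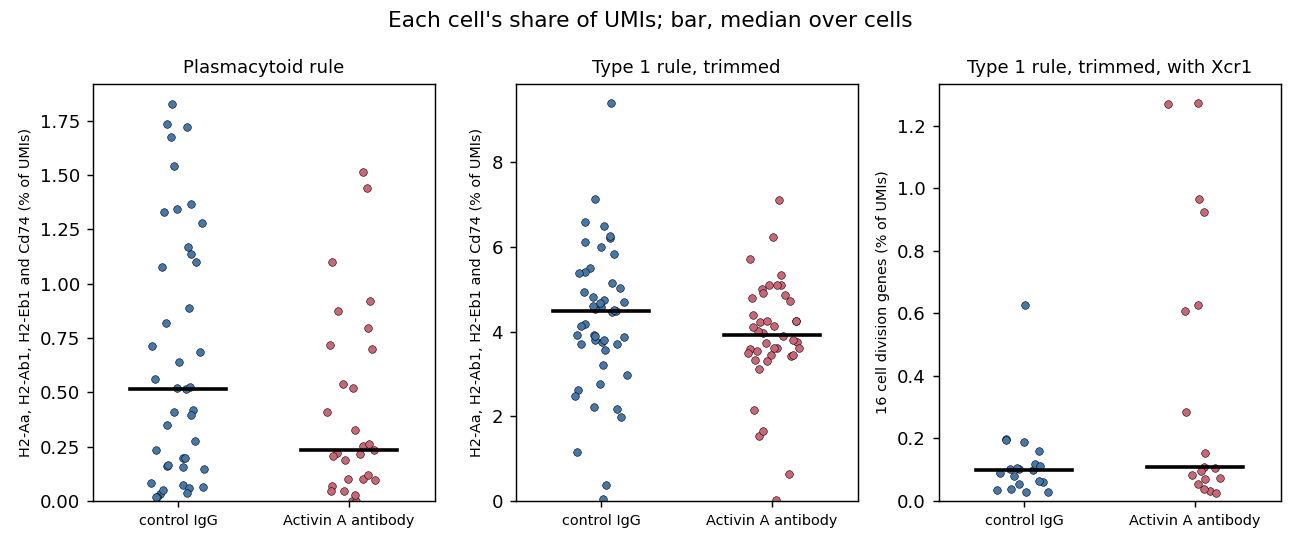
Each point is 1 cell and the bar is the median over cells, for control IgG and the Activin A antibody. The left and middle panels give the share of a cell's UMIs (%) in H2-Aa, H2-Ab1, H2-Eb1 and Cd74 in the plasmacytoid group (medians 0.513% and 0.236%) and in trimmed type 1 cells (4.48% and 3.92%), and the right panel the share in 16 division genes in trimmed type 1 cells with Xcr1, where the highest values are 0.627% and 1.27%.

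Within pDC, 23 of 1973 genes (1.17%) were at least 2-fold higher with the antibody and 35 (1.77%) at least 2-fold lower. Levels of MHC class II were lower in the antibody library. All 8 tested genes of that list had ratios below 0, with a median of -0.76 beside 0.02 over all 1973 genes, and 2 of them were at least 2-fold lower. H2-Ab1, a chain of the class II molecule I-A (chromosome 17, 34257689 to 34269419, plus strand, GRCm38), had 240 and 66 UMIs, or 827 (726 to 938) and 367 (284 to 467) CPM, a log2 ratio of -1.17 (-1.59 to -0.77). H2-DMb1, which helps to load peptides, had 44 and 12 UMIs (log2 ratio -1.18, -2.24 to -0.24). H2-Aa was at 968 and 578 CPM, H2-Eb1 at 593 and 345, Cd74 at 4152 and 2551, and the protease Ctss, which trims the invariant chain, at 882 and 495 CPM. The median mitochondrial share of a cell's UMIs was also lower in the antibody library, at 3.14% and 2.58% in pDC, 2.24% and 1.81% in trimmed type 1 cells and 3.16% and 2.43% in T cells. With CPM computed without mitochondrial, ribosomal and haemoglobin genes the ratio of H2-Ab1 was -1.17, and any further part of RNA quality was not tested.

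Single pDC overlapped widely in MHC class II. The share of a cell's UMIs in H2-Aa, H2-Ab1, H2-Eb1 and Cd74 ran from 0.0157% to 1.83% in control IgG, with a median of 0.513%, and from 0% to 1.51% with the antibody, with a median of 0.236%. Cells of low and of high share were present in both libraries. Levels were far higher in trimmed type 1 cells, with medians of 4.48% and 3.92%, and in Cd209a dendritic cells, with 4.91% and 3.22%, and in both the antibody library was again the lower one. In T cells the log2 ratio of Cd74 was -0.88 (-0.91 to -0.85). Free RNA moved in the same direction, with the class II list at 5797 and 3330 CPM in droplets under 100 UMIs. By the T cell genes Trac, Trbc1, Trbc2, Nkg7 and Gzma, free RNA was estimated at 2.14% and 4.75% of the UMIs in pDC, and with such a share subtracted the ratio of H2-Ab1 was -1.21.

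Among the genes of lowest ratio in pDC were Fn1 (-5.50), Ifitm3 (-3.13), Cd209d (-2.33), Cstb (-1.98) and Fkbp5 (-1.41). For 2 of them a lone cell held most of the UMIs. One control IgG cell, which met both rules with 9 UMIs of Siglech, held 128 of the 146 Fn1 UMIs together with 56 UMIs of Col1a1 and 88 of Col3a1, which encode fibronectin and fibrillar collagens of fibroblasts. Another held 67 of the 113 Ifitm3 UMIs and 274 of the 291 Lyz2 UMIs, and was the deepest of the group at 15902 UMIs. Without the cell that held most of each gene, the ratios were -3.48 for Fn1 and -2.51 for Ifitm3, and with C1q, Ccr7 and Fscn1 at 0 they were -1.34 and -2.02. Without the 5% of members with most UMIs they were -2.94 and -1.61. The whole fibroblast list summed to 810 and 11.1 CPM in pDC and the macrophage and monocyte list to 1178 and 139 CPM, against 980 and 1670 CPM and 2138 and 1423 CPM in free RNA. Col3a1 and Lyz2 were the most abundant genes of these lists. Apart from the division genes, given before without the cell rich in Fn1, the part of such cells in the other ratios was not tested.

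The other genes named here were found in more cells. Cd209d, a C-type lectin, had 89 UMIs in 22 of 43 cells in control IgG and 11 UMIs in 7 of 29 cells with the antibody, or 307 and 61.1 CPM. The log2 ratio was -2.33 (-3.38 to -1.42), and the cells with most UMIs held 17 and 3. It is 1 of 3 tested genes of the list of Cd209a dendritic cells, whose median ratio in pDC was 0.75. Cstb, an inhibitor of cathepsins, was found in 21 and 8 cells, but 1 control IgG cell held 17 of its 51 UMIs, and the ratio of -1.98 was -1.59 without the richest cell. Fkbp5, a chaperone induced by glucocorticoids, was found in 34 and 16 cells. All 3 had a UMI in a larger share of the control IgG cells.

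The 6 highest ratios in pDC rested on low counts of 28 to 49 UMIs in the antibody library. They were those of the ligase gene Ube2q2 (1.50), Tcirg1, a subunit of the proton pump (1.39), Srebf2, which drives sterol synthesis (1.36), the transferrin receptor Tfrc (1.30), Nceh1, a cholesterol ester hydrolase (1.26), and Scfd2 (1.23). With C1q, Ccr7 and Fscn1 at 0, Nceh1 was at 0.95 and Scfd2 at 0.86. Irf8 (log2 ratio 0.53, 0.31 to 0.74), Runx2 (0.48, 0.22 to 0.74) and Cox6a2 (0.53, 0.30 to 0.77) were higher, short of 2-fold, while Bst2 (0.02, -0.14 to 0.18) and Ly6d (-0.04, -0.29 to 0.20) did not differ beyond counting error. Of 17 plasmacytoid markers tested, none was 2-fold higher or lower, and 11 had ratios above 0, beside 1052 of all 1973 genes, with a median of 0.21.

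**Figure D5:**
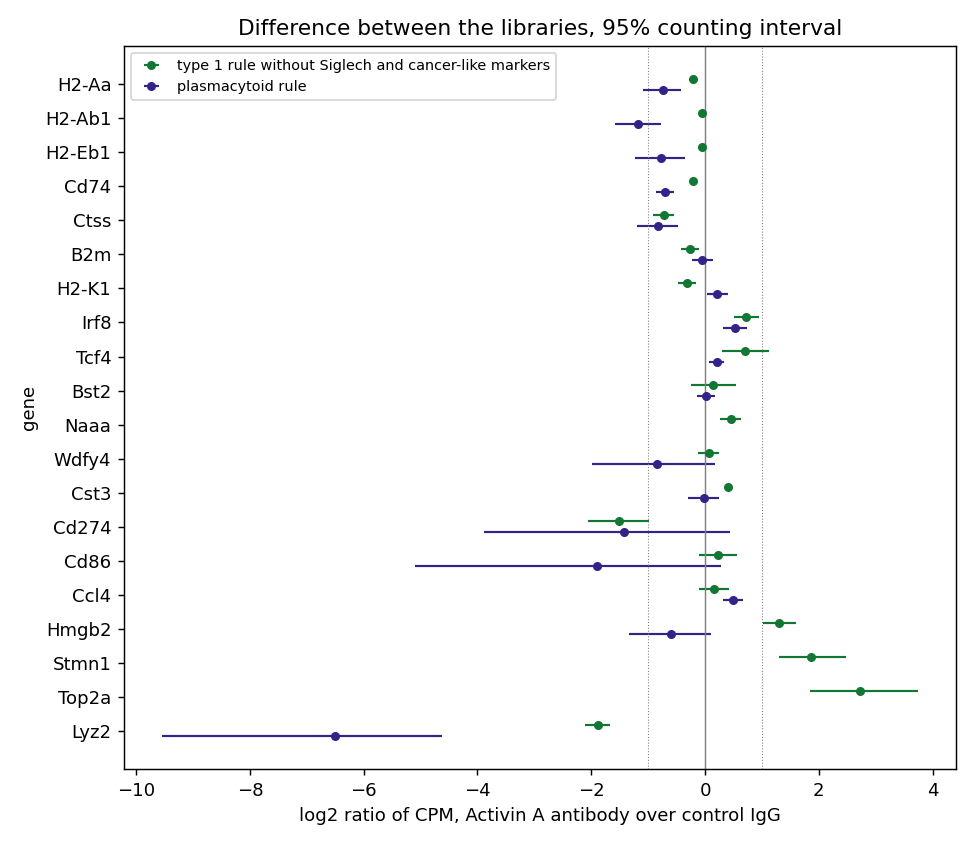
log2 ratio of CPM, Activin A antibody over control IgG, with the 95% counting interval, for 20 genes in trimmed type 1 cells and in the plasmacytoid group; dotted lines mark 2-fold. The MHC class II genes H2-Aa, H2-Ab1, H2-Eb1 and Cd74 lie between -1.17 and -0.70 in the plasmacytoid group, Cd274 at -1.51 and Top2a, whose mean level was under 100 CPM, at 2.73 in trimmed type 1 cells. Naaa, Stmn1 and Top2a had 0 UMIs in the plasmacytoid group of the antibody library and are not drawn there.

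MHC class II in type 1 cells had no ratio past 2-fold, and its difference from pDC was not tested. In the 90 trimmed cells, 0 of the 12 tested genes of the list were 2-fold higher or lower, with a median log2 ratio of -0.10. Cd74 stood at 21279 and 18360.1 CPM and H2-Aa at 7561 and 6563 CPM. Of the MHC class I and cross-presentation genes, 12 were tested and 1, Cybb, a subunit of the oxidase that keeps the phagosome from turning acid, was at least 2-fold lower, beside 1.29% of all genes, at 209 and 103 CPM. B2m and H2-K1, parts of the class I molecule, had log2 ratios of -0.26 (-0.42 to -0.11) and -0.32 (-0.48 to -0.16). The type 1 markers themselves had ratios above 0 for 8 of 9 tested genes, beside 806 of all 1632, with none past 2-fold, among them Irf8 (0.72), Naaa (0.45) and Wdfy4 (0.07).

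Lists of response genes gave few values past 2-fold in either kind. Of the interferon-stimulated genes, 7 were tested in trimmed type 1 cells with a median log2 ratio of -0.07 and none past 2-fold, and 4 in pDC with a median of -0.38 and 1, Ifitm3, lower. Isg15 in trimmed type 1 cells was at 168 and 321 CPM. Immediate-early and heat shock genes, which can be switched on while tissue is dissociated, had ratios above 0 for 9 of 10 genes in trimmed type 1 cells (median 0.59, Egr1 past 2-fold) and for 2 of 5 in pDC (median -0.23, Junb lower past 2-fold). Over all genes tested, 806 of 1632 and 1052 of 1973 had ratios above 0, 0.49% and 1.17% were 2-fold higher and 1.29% and 1.77% lower. Fos in trimmed type 1 cells was at 434 and 689 CPM. The chemokine list gave 1 of 4 tested genes past 2-fold in trimmed type 1 cells, Ccl6, and the list of growth factor and interferon receptors none of 5 in either kind. Of the activin and TGF beta genes, 2 were tested in trimmed type 1 cells and 4 in pDC, and none was 2-fold higher or lower. Skil, a repressor that TGF beta signaling induces, was at 168 and 121 CPM in trimmed type 1 cells and 193 and 106 CPM in pDC. The lists of nucleic acid sensing, cytokines, and chemokine and homing receptors gave no value past 2-fold in either kind, with the cytokine Il1b at 383 and 348 CPM and the chemokine receptor Ccr2 at 279 and 261 CPM in trimmed type 1 cells.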

How the data were processed

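Unsorted tumor cells were sequenced by 10x 3' single-cell RNA sequencing, 1 pooled library per group. The authors deposited the UMI counts of 32285 genes in every droplet as Cell Ranger wrote them, neither normalized nor filtered to cells. The submitters' processing notes name Cell Ranger 7.0.1 and the build mm10, whereas the file headers name version 4, and the labels and methods give different kit chemistries. Groups were taken from the labels.

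From the counts, cells were filtered by the study's limits and members selected on raw UMIs (Python 3.11.15, numpy 2.4.6, scipy 1.17.1, pandas 2.3.3, matplotlib 3.10.9). The members, gene lists and rules were chosen with earlier results of these data known, and the split of the type 1 cells was made after their values were seen. CPM were computed from UMIs summed over the cells of a set and library. Genes with a mean of at least 100 CPM were compared, with 2-fold between libraries and 4-fold in both libraries between kinds counted as past the fold; genes of the rule were left out. Of each list, the most abundant genes and those past the fold were named, and of all genes with UMIs in at least 10 members of the higher library, the 6 highest and 6 lowest of each kind and the 10 furthest to each side between kinds. The ratio script was tested on simulated data. Free RNA was read from droplets with under 100 UMIs. For equal depth, cells were thinned to 2000 UMIs and shallower cells left out (96 and 120 T cells, no member). T cells had 2 or more CD3 UMIs and no Cd79a, C1q macrophages 5 or more C1q UMIs, none of Cd3d, Cd3e, Cd3g, Cd79a, Xcr1 or Clec9a and at most 1 of Siglech, and Cd209a dendritic cells a UMI of Cd209a within the limits of the rules, with neither rule met. The alternatives tried concern the thresholds, limits on other cells, cell filter, depth, denominator, scaling, weight of cells, low genes, free RNA and deep cells. Gene positions are from GENCODE vM21 (GRCm38). Some genes that these rules pick are not reported here.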

Additional observations from a re-analysis of the deposited data

How the results depend on the processing

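No paired analysis was possible because control IgG and antibody have 1 library each, pooled over mice, and for the same reason no replicate could be left out. The log2 ratio of shares (reported 0.14 and -0.11) ran from -0.14 to 0.51 for the type 1 rule and from -0.21 to 0.21 for the plasmacytoid rule over the alternatives run; both changed sign, and each interval included 0. Of 45 named log2 ratios, 43 kept their direction throughout. Dlk1 in type 1 cells (reported 1.06) was -0.33 without the 5% of members with most UMIs, and Mt1 in type 1 cells (1.10) was -0.080 with Xcr1 and Clec9a summed at 2 or more. The ratio of Cd274 in trimmed type 1 cells ran from -2.15 to -1.17.

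The following counts of genes past a fold moved, and the cause was not tested. With a mean of at least 50 CPM, more genes were tested, and the counts higher and lower with the antibody were 18 and 54 in type 1 cells (reported 8 and 16), 98 and 131 in pDC (23 and 35) and 32 and 74 in trimmed type 1 cells (8 and 21). With at least 200 CPM they were 3 and 6, 5 and 12, and 2 and 6. Between the kinds, 145 genes were then higher in pDC and 97 in type 1 cells at 50 CPM (reported 90 and 43) and 53 and 20 at 200 CPM, and for trimmed type 1 cells 209 and 141 (reported 123 and 69) and 67 and 31.

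With stricter rules (Xcr1 and Clec9a at least 2, Siglech at least 3) 22 genes were higher and 44 lower in type 1 cells, and 20 and 44 in trimmed ones. With C1q, Ccr7 and Fscn1 at 0, the counts were 14 and 31 in type 1 cells, 41 higher in pDC and 15 higher in trimmed type 1 cells, and with no limit on these genes 32 and 56 were lower in type 1 and trimmed type 1 cells. CPM without mitochondrial, ribosomal and haemoglobin genes gave 13 higher in type 1 cells, 45 higher in pDC, 18 higher and 32 lower in trimmed cells, and 73 higher in type 1 cells than in pDC. With the mean CPM of single cells, 15 were higher in trimmed cells, and 5 were higher in pDC than in type 1 cells. With each gene counted without its richest cell, an alternative chosen after seeing the data, 1 was higher in type 1 cells, and 5 were higher and 13 lower in trimmed ones. Subtracting free RNA by haemoglobin changed nothing, as members had 0 haemoglobin UMIs; the T cell genes used in its place, and the trimming of type 1 cells, were also chosen after seeing the data. All pDC together held 290235 and 179937 UMIs, so a gene at 100 CPM rests on few UMIs and a small difference in it could not be seen.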
